A study of Saccharomyces cerevisiae with 18 samples.

Results

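The 10 genes described here code for factors that carry ribosomes through initiation and elongation of translation in budding yeast, Saccharomyces cerevisiae: TEF1, TEF2, TEF4, CAM1, EFT1, EFT2, YEF3, HYP2, TIF1 and TIF2. They were taken as a named list and not by a cut on their values, though earlier results of these data were known. Each was followed through every accessible-chromatin peak lying within 500 bp of the 5' end of its coding gene model on genome build R64. That rule found 11 of the 2086 peaks in the deposited table, at 8 of the 10 genes. TEF4 and TIF1 had no peak in reach, the nearest one lying 3643 bp and 2204 bp away. Of all 6002 coding genes, 2664 (44.4%) had a linked peak.

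The peaks come from ATAC-seq, in which a transposase cuts and tags DNA that nucleosomes and other proteins leave accessible. In the yeast metabolic cycle, cells in a fermenter move together through repeated bursts of oxygen uptake. The 18 libraries were made from cycling cells fixed with formaldehyde, 1 at each of 18 time points, and the labels give each time point a phase. Reductive Charging held 8 libraries (time points 1 to 5 and 16 to 18), Oxidative held 5 (6 to 10) and Reductive Building held 5 (11 to 15). All groups share 1 growth and extraction protocol, no strain or treatment is named in the labels, and samples were collected in 2 batches that the labels do not assign to libraries. Batch and phase therefore cannot be told apart.

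Elongation factors work in a cycle on the ribosome. eEF1A delivers aminoacyl-tRNA, the eEF1B complex recharges eEF1A with GTP, eEF2 moves the ribosome along the message, and fungi need a further ATPase, eEF3. eIF5A relieves stalled ribosomes and eIF4A is an RNA helicase that acts when ribosomes scan towards the start codon. Several of these proteins are made from gene pairs that code for the same or nearly the same sequence, so the paralogues can differ in their promoters while their products do not.

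Levels are given as nuclear CPM, the counts of a peak per 1000000 counts in the 2042 nuclear peaks outside the ribosomal DNA repeats. Such a value is a share of the nuclear signal, and fewer cells with an open site cannot be told apart from a less open site in each cell. Total counts ran from 21254 to 29314373 per library and nuclear counts from 9228 to 12477489. In 13 libraries no more than 10% of nuclear peaks were at 0, and these are called well covered (6 of Reductive Charging, 5 of Oxidative, 2 of Reductive Building). The other 5, at time points 11, 13, 15, 16 and 18, stand apart, with 9228 to 1960004 nuclear counts and 229 to 1720 nuclear peaks at 0. A count of 0 allows up to 325 nuclear CPM at time point 16 and 29.4 at time point 15 (3 counts of the nuclear total), so many zeros there were not informative. No time point was repeated. Libraries of 1 phase served as the replicates, and each p-value sets a difference between phases against the spread between time points of a phase. The tests treat these libraries as independent, which successive time points of a cycle need not be.

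Of the 11 peaks, 8 lay over a gene start and 3 lay inside a coding region or ran past its end. The TEF1 start peak spanned XVI:699850-700598, reached only 4 bp into the TEF1 coding region and overlapped the neighbouring MRL1 coding region. The TEF2 start peak spanned II:476453-477713 and also lay at the start of TKL2, which codes for a transketolase. The TEF1 coding peak (XVI:700909-702109) began 315 bp past the 5' end, with 1062 of its 1201 bp in the coding model. The TEF2 coding peak (II:478085-479155) began 414 bp past the 5' end, with 963 of its 1071 bp in the coding model, and was linked to MUD1 as well. The map of peaks around the aligned gene starts shows this layout: both TEF genes had 1 peak upstream and 1 over the gene, while EFT1 had a pair of short peaks and the others a single peak.

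**Figure D1:**
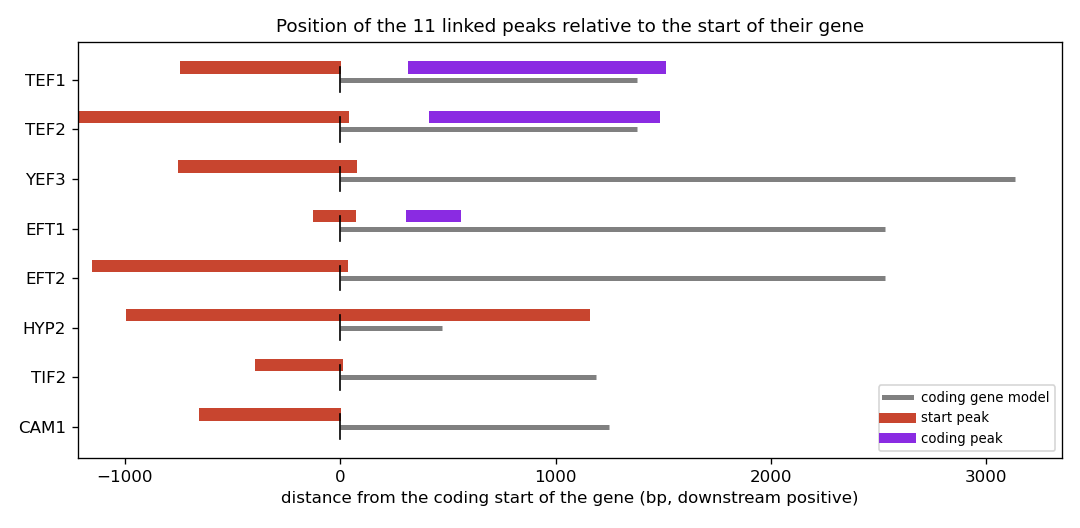
Peaks within 500 bp of the 5' end of each gene, drawn as bars against the distance in bp from that 5' end, with transcription to the right and 1 row per gene. Of the 10 genes, 8 had a linked peak; TEF4 and TIF1 had none.

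The peaks differed widely in level and in steadiness. Per kb of peak, in the 13 well-covered libraries, the order of mean levels was HYP2 (1858 ± 180 nuclear CPM per kb, SD), EFT2 (1382 ± 375), the TEF2 start peak (834 ± 183), the TEF1 start peak (631 ± 161), CAM1 (627 ± 221), TIF2 (191 ± 116), YEF3 (183 ± 79.9) and the EFT1 start peak (172 ± 110). The coding peaks came last, with 167 ± 122 for TEF2, 165 ± 133 for TEF1 and 80.3 ± 70.4 for EFT1. The TEF1 start peak exceeded CAM1 in only 8 of 13 libraries and TIF2 exceeded YEF3 in 6 of 13, so these neighbours did not separate. Nor did YEF3 from the EFT1 start peak (8 of 13) or the EFT1 start peak from the TEF2 coding peak (8 of 13). The TEF2 coding peak exceeded that of TEF1 in 6 of 13. CAM1 exceeded TIF2 in 13 of 13. Single libraries could break the order of means: per kb, the TEF1 coding peak was above the TEF1 start peak in 1 library, time point 8. The coefficient of variation over the same libraries rose from 9.67% for HYP2 to 87.6% for the EFT1 coding peak, against a median of 39.9% over all 2042 peaks.

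**Figure D2:**
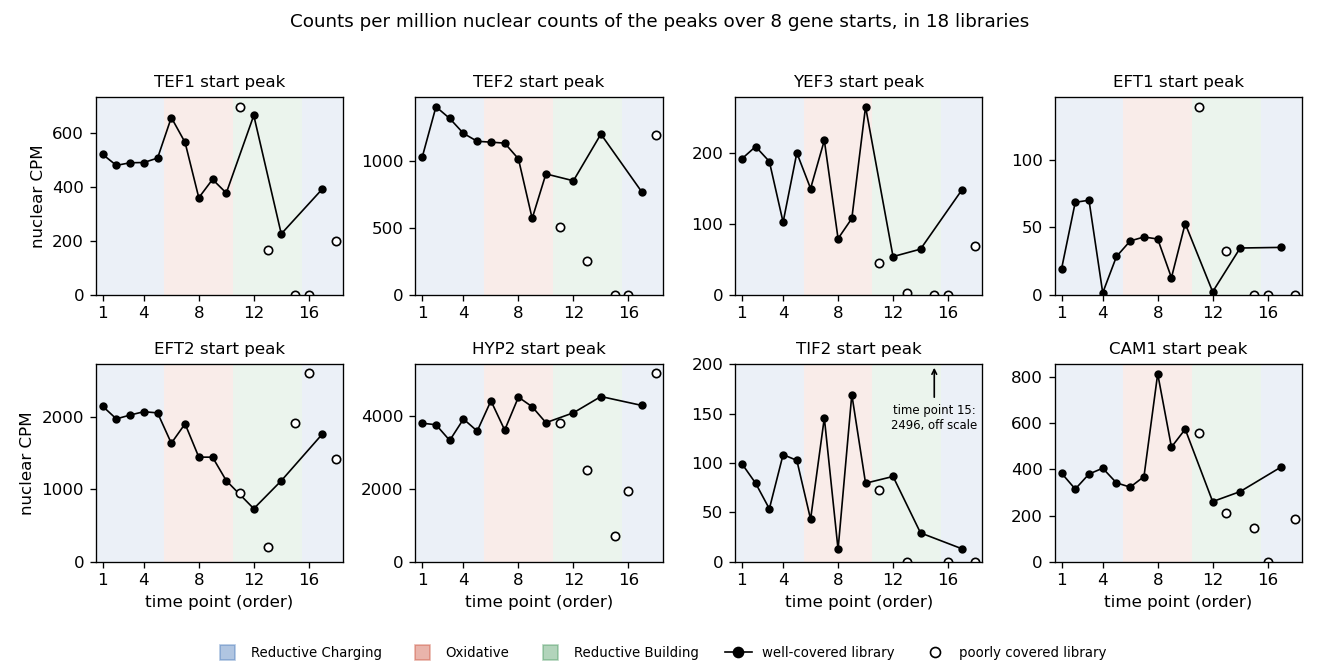
Nuclear CPM (y axis) of the peak over each of 8 gene starts against the time point (x axis), with shading for the labelled phase, filled points joined by a line for the 13 well-covered libraries and open points for the 5 poorly covered ones. EFT2 stands between 1762 and 2144 in the well-covered Reductive Charging libraries and at 732 at time point 12, HYP2 stayed between 3337 and 4544 in the well-covered libraries, and the TIF2 point at time point 15, at 2496, lies off the scale of its panel.

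The eEF1A genes are TEF1 and TEF2. At the TEF1 start peak the 8 Reductive Charging libraries ran from 0 to 520 nuclear CPM with a median of 484. The Oxidative libraries gave 656, 564, 359, 427 and 377, and the Reductive Building libraries gave 696, 664, 164, 225 and 0. The phases overlapped, and the highest values stood at time points 6, 11 and 12. The TEF2 start peak ran from 0 to 1403 in Reductive Charging with a median of 1170.0, and its Oxidative values were 1139, 1132, 1014, 569 and 902. Its Reductive Building values were 508, 851, 249.8, 1199 and 0, so here too the phases overlapped. The library at time point 16 was at 0 for both, on 9228 nuclear counts. In the well-covered libraries the Oxidative minus Reductive Charging log2 fold change was -0.01 ± 0.25 (SE) for TEF1 and -0.27 ± 0.19 for TEF2, neither past the threshold by edgeR's quasi-likelihood test (adjusted p = 0.990 and 0.575).

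TEF1 and TEF2 were set against each other within each library, which takes library size out of the comparison. The log2 TEF1/TEF2 ratio of the start peaks averaged -1.23 ± 0.24 (SD, n = 6) over the Reductive Charging libraries. It averaged -0.99 ± 0.42 (n = 5) over the Oxidative and -1.39 ± 1.45 (n = 2) over the Reductive Building libraries. TEF2 thus held more counts than TEF1 in its longer peak, and after division by length the mean ratio was -0.41, with TEF1 above TEF2 in 2 of 13 libraries. The Oxidative minus Reductive Charging difference in the ratio was 0.24 (two-sided exact permutation p = 0.268, adjusted p = 0.575 over 15 ratio tests). Reductive Building minus Oxidative gave -0.39 (exact p = 0.571), with the ratio at -0.36 at time point 12 and -2.41 at time point 14. The difference was 0.64 without time point 14 and -1.42 without time point 12, so its sign turned on which library was kept. With 2 libraries in Reductive Building, the smallest p that such a test allows is 0.0476 against Oxidative and 0.0357 against Reductive Charging.

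The coding peaks of both TEF genes followed another course than their start peaks. The TEF1 coding peak ran from 0 to 179 nuclear CPM in Reductive Charging, with a median of 113. Its Oxidative values were 128, 184, 589, 440 and 329 and its Reductive Building values 199, 55.2, 64.3, 98.8 and 0. The TEF2 coding peak ran from 0 to 153 in Reductive Charging, with a median of 113, was at 128, 177, 521, 366 and 249 in Oxidative, and at 308, 101, 60.0, 113 and 0 in Reductive Building. In both, time point 8 stood highest and time points 9 and 10 next among the well-covered libraries, while time points 6 and 7 were near the Reductive Charging range. The log2 fold change, Oxidative minus Reductive Charging, was 1.43 ± 0.37 for TEF1 and 1.38 ± 0.38 for TEF2. By edgeR both just missed the threshold (adjusted p = 0.0511 and 0.0651). The TEF1 call turned on the setting, for it passed with TMM normalization (adjusted p = 0.0469; 0.00526 to 0.233 over 21 alternatives).

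The TEF1 and TEF2 coding regions are nearly identical in sequence, so reads inside them may have been split between the copies by the aligner, and how such reads were counted is not given in the sources used here. The 2 coding peaks are therefore uncertain as separate measurements. The log2 ratio of TEF1 to TEF2 coding peak counts averaged 0.22 ± 0.48 (SD, n = 6) over Reductive Charging and 0.18 ± 0.16 (n = 5) over Oxidative libraries. Over the 2 Reductive Building libraries it averaged -0.53 ± 0.47, which is -0.71 from Oxidative (exact permutation p = 0.0476, the smallest this test allows, adjusted p = 0.238). Single libraries ran from -0.87 at time point 12 to 1.08 at time point 17, the latter from 515 against 243 counts. Within TEF2, the log2 ratio of the coding peak to the start peak was -1.86 ± 1.08 (n = 5) over Oxidative libraries against -3.45 ± 0.45 (n = 6) over those of Reductive Charging. That difference of 1.59 had an exact permutation p = 0.00433 and an adjusted p = 0.0649 over 15 tests. Within TEF1 the difference was 1.32 (exact permutation p = 0.0433, adjusted p = 0.238). These ratios were chosen after the values had been seen.

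**Figure D3:**
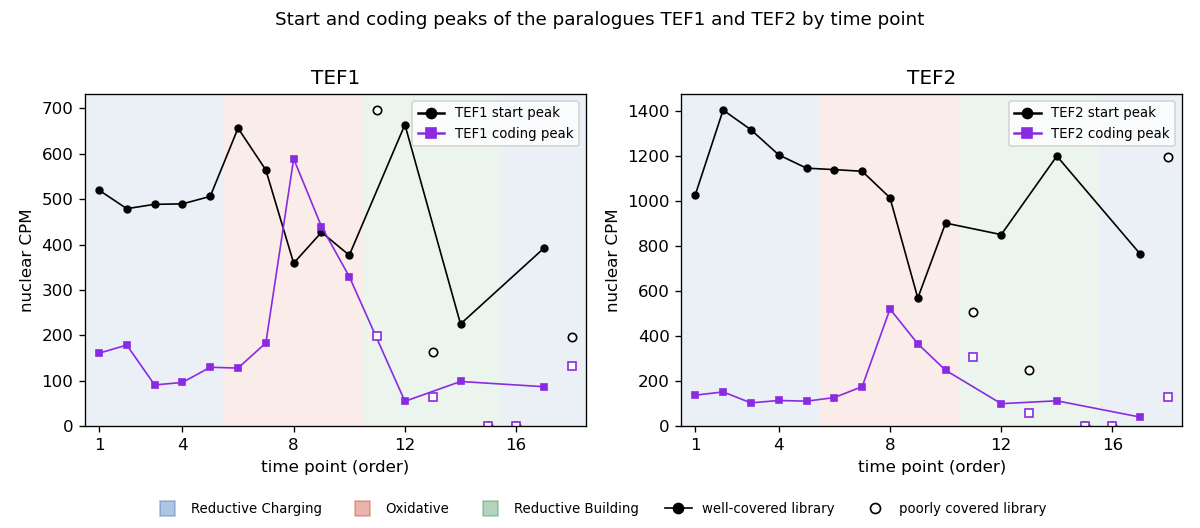
Nuclear CPM (y axis) of the start and coding peaks of TEF1 and TEF2 by time point (x axis), shaded by phase, with open points for poorly covered libraries. Both coding peaks stand highest at time point 8 (589 and 521) and then decline over time points 9 and 10, where the start peaks show no such rise.

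CAM1 and TEF4 code for the gamma subunit of eEF1B, the complex that exchanges GDP for GTP on eEF1A. TEF4 had no linked peak, so the paralogues could not be compared. The CAM1 start peak (XVI:463745-464404) is shared with DIG1, a regulator of mating genes transcribed the other way. It ran from 0 to 411 nuclear CPM in Reductive Charging, with a median of 361. Its Oxidative values were 323, 369, 815, 497 and 574 and its Reductive Building values 557, 261, 213, 304 and 147. The 3 highest well-covered libraries were time points 8, 9 and 10, as for the TEF coding peaks, but the fold change of 0.47 ± 0.23 on the log2 scale between Oxidative and Reductive Charging did not pass (edgeR adjusted p = 0.340).

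This ordering, chosen after seeing the values, with the 3 highest of 13 libraries at time points 8, 9 and 10, was found in 3 of the 11 member peaks and in 111 of all 2042 peaks (5.44%). It was found in 63 of 1005 peaks over a coding 5' end (6.27%). Among the 229 peaks that lay mostly within 1 coding region and over no 5' end, 28 had it (12.2%). The TEF coding peaks are of this second kind, and each counts among the 3 members though they are uncertain as separate measurements.

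eEF2 is made from EFT1 and EFT2. The EFT2 start peak (IV:1242077-1243267), shared with ATO3, a gene for an ammonium transporter, was the only member peak to pass the edgeR test, in 1 comparison where 1.42% of all peaks did. It was high in Reductive Charging, from 1414 to 2601 nuclear CPM with a median of 2037. In the Oxidative libraries it was at 1634, 1901, 1442, 1441 and 1118, and in Reductive Building at 948, 732, 208, 1116 and 1909. The low point among well-covered libraries was time point 12, and the value at time point 17 was back at 1762. The 1909 at time point 15 rests on 195 counts and the 2601 at time point 16 on 24, with Wilson 95% intervals of 1659 to 2196 and 1748 to 3867 for counting error only.

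In the well-covered libraries the EFT2 start peak averaged 2003 ± 131 nuclear CPM (SD, n = 6) over Reductive Charging. The averages were 1507 ± 288 (n = 5) over Oxidative and 924 ± 272 (n = 2) over Reductive Building. EFT2 was 1.12 ± 0.21 (SE) higher on the log2 scale in Reductive Charging than in Reductive Building (edgeR adjusted p = 0.0191). All 6 Reductive Charging libraries were above both of Reductive Building, as for 144 (7.05%) of all 2042 peaks. The call rests on few libraries. Without time point 12 the log2 fold change was 0.84 (adjusted p = 0.304), with ribosomal DNA counted in the library size it was 1.27 (adjusted p = 0.154; 1.54e-05 to 0.304 over 21 alternatives), and over all 18 libraries it was 1.03 ± 0.40 (adjusted p = 0.450). The Oxidative mean lay between those of the other phases, with a log2 fold change of -0.41 ± 0.15 against Reductive Charging (adjusted p = 0.174). Single libraries of these 2 phases overlapped, with 1901 at time point 7 above 1762 at time point 17. Reductive Building stood -0.71 ± 0.21 from Oxidative (adjusted p = 0.0916).

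EFT1 had far weaker peaks. Its start peak (XV:574974-575173) was only 200 bp long and ran from 0 to 70.0 nuclear CPM in Reductive Charging, with a median of 23.7. Its Oxidative values were 39.9, 42.8, 41.3, 12.6 and 52.7, and its Reductive Building values 139, 2.18, 32.2, 34.6 and 0. Neighbouring time points could differ greatly, as with 70.0 at time point 3 and 1.40 at time point 4, the latter from 11 counts. The EFT1 coding peak (XV:575403-575658) was lower still, with medians of 9.52, 20.4 and 0 in Reductive Charging, Oxidative and Reductive Building over all libraries. As the EFT coding regions are also nearly identical, this peak carries the same doubt as those of TEF1 and TEF2.

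The log2 EFT1/EFT2 ratio of the start peaks was -6.46 ± 2.10 (SD, n = 6) over the Reductive Charging libraries. It was -5.43 ± 0.88 (n = 5) over the Oxidative and -6.67 ± 2.35 (n = 2) over the Reductive Building libraries. Per length the mean ratio was -3.53, and EFT1 was above EFT2 in 0 of 13 libraries. The Oxidative minus Reductive Charging difference was 1.03 (two-sided exact permutation p = 0.392, adjusted p = 0.653). It was 0.23 without time point 4, so the difference rested largely on that library. Reductive Building minus Oxidative was -1.24 (exact p = 0.381), and no ratio difference passed the threshold after adjustment over the 15 tests. The imbalance between the EFT start peaks was larger than that between the TEF start peaks in every well-covered library, as the plot of within-library ratios shows. The EFT2 and TEF2 start peaks are shared with ATO3 and TKL2, so these ratios belong to the peaks and not to the genes alone.

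**Figure D4:**
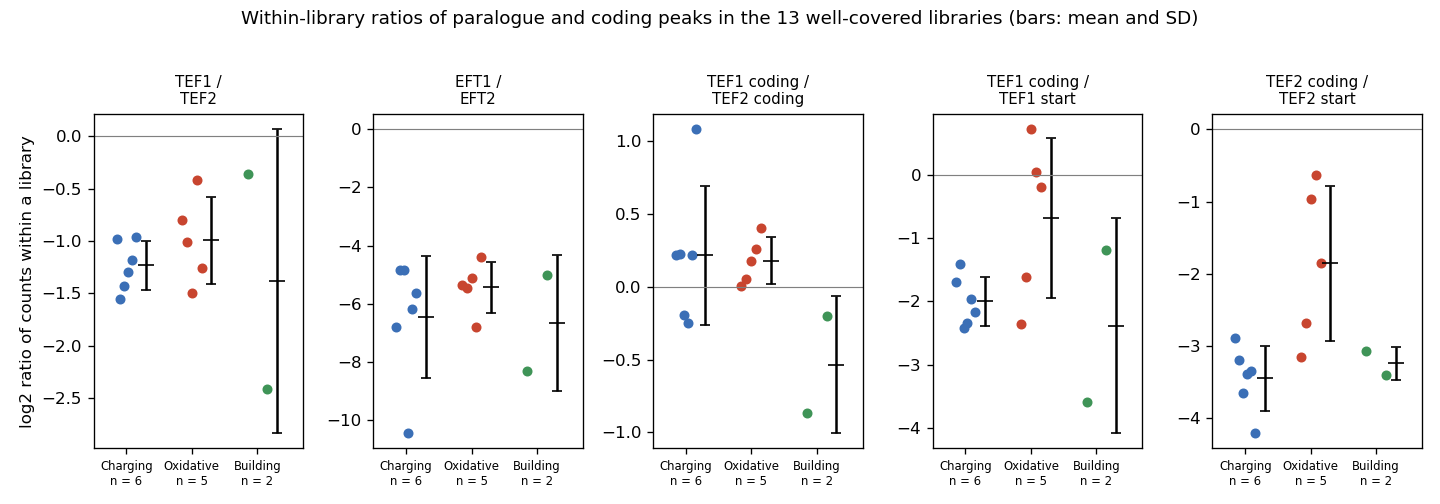
Log2 ratios of paralogue peak counts, and of coding to start peak counts, within each well-covered library (y axis, log2 of count + 0.5 over count + 0.5), 1 point per library, by phase (x axis), with the phase mean and SD. The TEF1/TEF2 start ratio lies between -2.41 and -0.36 and the EFT1/EFT2 ratio runs from -10.46 at time point 4 to -4.40 at time point 10.

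YEF3 codes for eEF3. Its start peak (XII:636028-636856) overlaps the coding region of the neighbouring RCK2, a protein kinase gene. It ran from 0 to 209 nuclear CPM in Reductive Charging, with a median of 168. The Oxidative values were 149.7, 218, 79.1, 107 and 265, and the Reductive Building values 45.4, 53.7, 2.14, 64.3 and 0. No Reductive Building library reached the lowest Oxidative one, but those at time points 11, 13 and 15 are poorly covered, with 2 counts at time point 13. Among the well-covered libraries, 211 of all 2042 peaks (10.3%) were likewise lower in Reductive Building without overlap. In well-covered libraries YEF3 was at 173 ± 40.6 (SD, n = 6), 164 ± 76.9 (n = 5) and 59.0 ± 7.44 (n = 2) in Reductive Charging, Oxidative and Reductive Building. The log2 fold change was 1.55 ± 0.51 (SE) for Reductive Charging minus Reductive Building (edgeR adjusted p = 0.175) and -1.47 ± 0.51 for Reductive Building minus Oxidative (adjusted p = 0.161). Of 21 alternatives in each comparison, only DESeq2 called the YEF3 start peak, with adjusted p = 0.0161 and 0.0321. Over the alternatives the adjusted p reached 0.670 and 0.455. Its paralogue HEF3, whose peak is shared with PBI2, averaged 387 ± 105, 228 ± 139 and 219 ± 51.6 nuclear CPM in the same order. The log2 fold change of HEF3 was -0.77 ± 0.37 for Oxidative minus Reductive Charging, where YEF3 had -0.08 ± 0.34, and the difference between the genes was not tested.

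HYP2 codes for eIF5A, the protein that carries the modified lysine hypusine. Its peak (V:84681-86834) was 2154 bp long, covered the whole gene and also lay at the starts of ANP1, UTR5, MTC7 and MCM3, so its level belongs to the region and not to HYP2 alone. It ran from 1951 to 5203 nuclear CPM in Reductive Charging, with a median of 3789. The Oxidative values were 4426, 3622, 4528, 4262 and 3825 and the Reductive Building values 3813, 4097, 2535, 4544 and 715. The low values were in poorly covered libraries. Among the 13 others its coefficient of variation of 9.67% was the 9th lowest of 2042 peaks. The log2 fold changes were 0.13 ± 0.10 for Oxidative minus Reductive Charging, 0.06 ± 0.14 for Reductive Building minus Oxidative and -0.19 ± 0.14 for Reductive Charging minus Reductive Building, none past the threshold by edgeR. Counting ribosomal DNA in the library size turned the first to -0.04. ANB1, the eIF5A gene of cells short of oxygen, shares a peak with CYC1, which averaged 1829 ± 535, 1700 ± 191 and 2306 ± 946 nuclear CPM in Reductive Charging, Oxidative and Reductive Building.

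TIF1 and TIF2 both code for eIF4A. TIF1 had no linked peak, so the pair could not be compared. The TIF2 start peak (X:154676-155088, with the gene on the minus strand) overlaps the coding region of GLG2, a glycogen-primer gene. It ran from 0 to 109 nuclear CPM in Reductive Charging, with a median of 66.6, and was at 43.1, 146, 12.5, 169 and 79.6 in Oxidative. In Reductive Building it was at 72.4, 86.4, 0, 29.2 and 2496. The last value, at time point 15, came from 255 of 102167 nuclear counts in a poorly covered library. Apart from it the phases overlapped, and the well-covered libraries gave a log2 fold change of 0.24 ± 0.63 for Oxidative minus Reductive Charging (edgeR adjusted p = 0.915).

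Over all 18 libraries edgeR called 0 of 2042 peaks (0%) in each comparison between phases, and so 0 of 11 member peaks. At an unadjusted p under 0.05 it gave 1, 2 and 3 of 11 members and 55 (2.69%), 115 (5.63%) and 184 (9.01%) of all peaks for Oxidative minus Reductive Charging, Reductive Building minus Oxidative, and Reductive Charging minus Reductive Building. DESeq2 called 0, 13 and 8 peaks and limma-voom 0, 6 and 0, with no member among them. Over the 13 well-covered libraries edgeR called 48 peaks (2.35%), 53 (2.6%) and 29 (1.42%) in the same order, with 0, 0 and 1 of the 11 members. Higher and lower calls numbered 32 and 16, 16 and 37, and 14 and 15. With DESeq2 size factors the first was 28 and 25 and the third 16 and 11, and with ribosomal DNA in the library size the second was 4 and 5. At an unadjusted p under 0.05 there were 3, 5 and 2 of 11 members, beside 307 (15.0%), 319 (15.6%) and 278 (13.6%) of all peaks. DESeq2 called 3, 3 and 2 members, beside 124 (6.07%), 118 (5.78%) and 60 (2.94%) of all peaks. In the first comparison these members were the TEF1 and TEF2 coding peaks, which are uncertain as separate measurements, both higher, and the EFT2 start peak, lower. limma-voom called 0, 0 and 1 members, beside 34 (1.67%), 71 (3.48%) and 22 (1.08%).

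The members' median log2 fold change in the well-covered libraries was 0.13 for Oxidative minus Reductive Charging, against 0.06 over all peaks. It was -0.87 for Reductive Building minus Oxidative, against -0.02, and 0.40 for Reductive Charging minus Reductive Building, against -0.04. All 5 Oxidative libraries were above both Reductive Building libraries for 5 of 11 members (TEF1 coding, TEF2 coding, EFT2, YEF3 and CAM1), as for 211 (10.3%) of all peaks. For EFT2 the lowest Oxidative value, 1118 at time point 10, barely exceeded 1116 at time point 14, and their Wilson 95% intervals overlapped. Reductive Charging was above Reductive Building without overlap for 3 of 11 (EFT2, YEF3 and CAM1), as for 144 (7.05%) of all peaks. These directions were taken after the members' values had been seen. The TEF coding peaks each count as a member in the medians and counts, though they are uncertain as separate measurements. Over the 8 start peaks alone, the medians were 0.01, -0.67 and 0.40 in the same order, the first below that of all peaks. Oxidative and Reductive Charging overlapped for 11 of 11, and 3.97% of all peaks did not overlap there. The comparisons share libraries, so they are not separate evidence, and 2 Reductive Building libraries carry little weight.

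**Figure D5:**
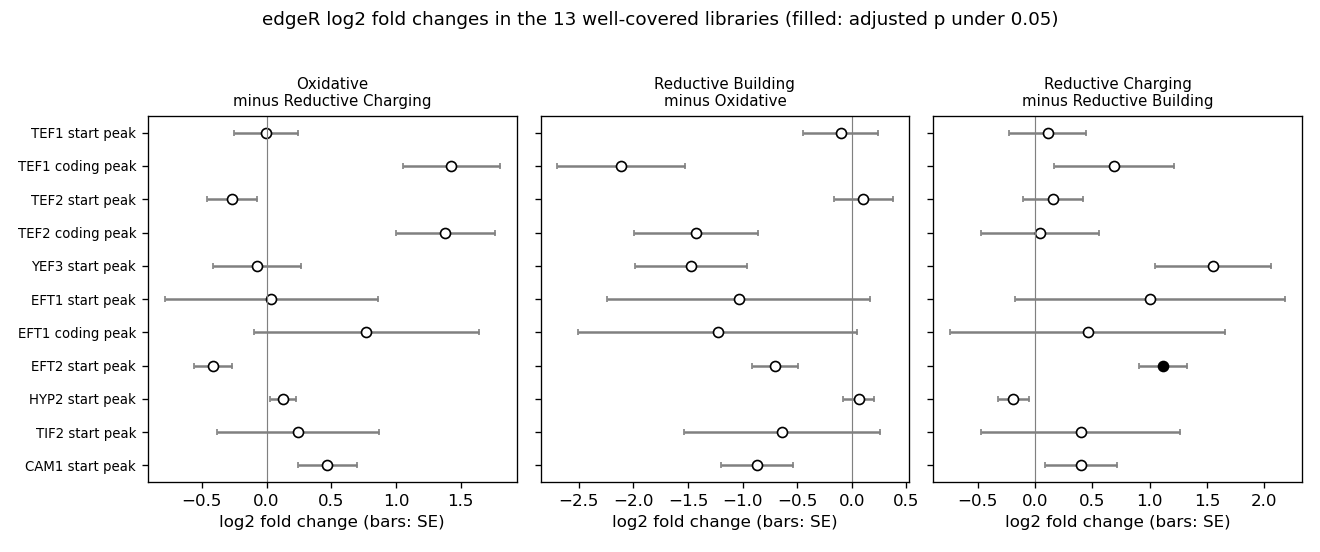
Log2 fold change (x axis) with its SE for each of the 11 member peaks (y axis) in 3 comparisons between phases, from edgeR on the 13 well-covered libraries. Values for Reductive Building minus Oxidative lie mostly below 0, and the filled point marks the EFT2 start peak, past the threshold at 1.12 in Reductive Charging minus Reductive Building.

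Of 48 other translation genes, 15 had a linked peak. Peaks were found for 3 of 4 further elongation genes, 5 of 11 genes of cap binding and scanning, 1 of 6 eIF3 genes and 2 of 11 genes of eIF2 and subunit joining. A further 3 of 6 genes of termination and recycling had one, as did 1 of 4 genes of eIF2 kinase control, and 0 of 6 genes that modify eIF5A and eEF2. None of the 15 passed in any comparison by edgeR on the well-covered libraries, with 1, 2 and 2 of them at an unadjusted p under 0.05, where 15.0%, 15.6% and 13.6% of all peaks were. Their log2 fold changes ran from -0.77 (HEF3) to 0.31 (PRT1, an eIF3 subunit) for Oxidative minus Reductive Charging, with a median of -0.11. For Reductive Building minus Oxidative they ran from -1.77 (PAB1, the poly(A)-binding protein) to 0.68 (SUP35, the release factor eRF3), with a median of -0.03. For Reductive Charging minus Reductive Building they ran from -0.57 (GCD6, a subunit of eIF2B) to 1.63 (PAB1), with a median of 0.38. The GCD6 peak is shared with YDR210C-C and YDR210C-D. EFB1, the catalytic eEF1B subunit, whose peak is shared with SSA1, had log2 fold changes of -0.46 ± 0.20, 0.58 ± 0.27 and -0.12 ± 0.27 in the 3 comparisons. CAM1, of the same complex, had 0.47 ± 0.23, -0.87 ± 0.33 and 0.40 ± 0.32, opposite in sign in each, a difference that was not tested.

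Genes known to mark the cycle were read out by phase, and the phase labels themselves were not tested. The peak of RPL17B, a ribosomal protein gene, shared with ATG27, averaged 1043 ± 112 nuclear CPM (SD, n = 5) over Oxidative libraries. It averaged 787 ± 173 (n = 6) over Reductive Charging and 357 ± 63.8 (n = 2) over Reductive Building. Its log2 fold change was -1.55 for Reductive Building minus Oxidative and 1.14 for Reductive Charging minus Reductive Building (edgeR adjusted p = 0.00501 and 0.0285). For Oxidative minus Reductive Charging it was 0.41 (adjusted p = 0.270). Over all 18 libraries RPL17B passed in no comparison (adjusted p = 0.998, 0.833 and 0.891). The peak of POX1, for fatty acid oxidation, is shared with CHC1. It was at 129 ± 93.5, 287 ± 114 and 361 ± 128 in Oxidative, Reductive Charging and Reductive Building, and passed no test. MRPL10, of the mitochondrial ribosome, had no linked peak.

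The peaks most like each member were those with the smallest root-mean-square difference in log2 nuclear CPM over the 13 well-covered libraries, after each peak was centred. For CAM1 these were the peaks of RPL36B (0.20), RPL2A (0.21) and RPL15B with NCW1 (0.23), against a median of 0.78 over the candidates. For the TEF1 start peak they were RPL17A (0.25), VID24 with SND3 (0.26) and DPI8 with MRS3 (0.26), against 0.73. The TEF2 start peak was nearest to PBI2 (0.21), HXT5 (0.22) and TOS8 (0.23), against 0.67, and so shared none of the 3 with TEF1. EFT2 was nearest to INO1 with SNA3 and DAS1 (0.19), ICS2 with AMN1 (0.19) and RCK1 (0.23), against 0.76. HYP2 was nearest to SNQ2 (0.09), RGI2 with VHR1 (0.09) and CWP2 (0.15), against 0.65. The weak start peaks lay farther from their nearest peaks. For YEF3 these were SKN7 (0.43), UPS1 with NCW2 (0.43) and HIS1 (0.43), against 0.90. For TIF2 they were PDS1 with MRX14 (0.57), HSV2 with AZR1 (0.58) and RPL35A (0.72), against 1.27. For the EFT1 start peak they were SEC24 (1.01), SEC9 with NMA2 (1.10) and EXP1 with YFH1 (1.16), against 1.77. These distances describe the 13 libraries and carry no test.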

How the data were processed

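ATAC-seq libraries from 18 time points of the yeast metabolic cycle were analysed from 1 table of whole-number counts per peak, as deposited by the authors. Per the submitters' processing notes, reads were handled with Trimmomatic, Bowtie2 and MACS2 on build R64. Tool versions, the counting step, read shifting, removal of duplicates, reads with several matches and pooling for peak calls were not named in the sources used here. All 18 columns matched a sample and 0 did not. Gene positions and names came from RefSeq's R64 annotation, whose models hold coding regions only, with the strand read from the systematic name. No genome was used, so no sequences are shown.

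Nuclear CPM used the counts of 2042 nuclear peaks outside ribosomal DNA as library size. The main test was edgeR 4.0.16 in R 4.3.3 (robust quasi-likelihood fit, filterByExpr, no TMM factor), with Benjamini-Hochberg adjustment over all peaks and a threshold of 0.05, fitted once to 18 and once to the 13 well-covered libraries. Paralogues were compared by log2 ratios of counts + 0.5 within libraries, with two-sided exact permutation over libraries, adjusted over 15 tests. Of these tests, 9 were added after values had been seen. The ratio tests used a pseudocount of 5 as an alternative. limma 3.58.1 and DESeq2 1.42.0 were alternatives, beside other scalings, filters, linking distances and leaving out each library. On simulated counts for Oxidative minus Reductive Charging at 2042 peaks, edgeR recovered 42%, 84% and 93% of 2-, 4- and 8-fold changes with 13 libraries, and 5%, 26% and 52% with 18. Changes in Reductive Building were not simulated, so these rates do not cover the comparisons with that phase. Named were all members with every linked peak, the lowest and highest of the other translation genes, the cycle marks and the 3 most alike peaks for each start peak. Members and lists were chosen with earlier results of these data known.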

Additional observations from a re-analysis of the deposited data

Results flagged for a closer look

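In 4 of 33 groups, each a member peak in 1 phase over all its libraries, 1 library stood far from the rest by Dixon's criterion, where chance gives about 1 in 20. The TEF2 start peak in Reductive Charging was lowest at time point 16, with 0 nuclear CPM from 0 of 9228 nuclear counts. The EFT1 start peak in Reductive Building was highest at time point 11, with 139 nuclear CPM from 273 counts. The EFT1 coding peak in Reductive Building was highest at time point 14, with 19.7 nuclear CPM from 183 counts. The TIF2 start peak in Reductive Building was highest at time point 15, with 2496 nuclear CPM from 255 of 102167 nuclear counts. The libraries at time points 11, 15 and 16 are poorly covered and the one at time point 14 is not. The EFT1 coding peak was, however, at 0 in the poorly covered Reductive Building libraries, time points 11, 13 and 15, against which time point 14 was set. The part of coverage in these values was not tested.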

How the results depend on the processing

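In the text, counts for the 3 comparisons stand in the order Oxidative minus Reductive Charging, Reductive Building minus Oxidative, and Reductive Charging minus Reductive Building. Over 18 libraries, where edgeR called 0 peaks in each, DESeq2 called 13 and 8 in the second and the third, limma-voom 6 in the second, and fits to only the compared phases 1 in the first and 1 in the second. Leaving out 1 library gave 0 to 39 in the second and 0 to 52 in the third, with 39 and 52 without time point 14. Over 13 libraries, with 48, 53 and 29 peaks called, DESeq2 called 124, 118 and 60, ribosomal DNA in the library size gave 0, 9 and 1, TMM gave 30 in the second, and fits to only the compared phases gave 12 and 13 in the second and the third. Leaving out 1 library gave 4 to 91, 21 to 108 and 5 to 134. The lowest came without time point 9 or 10, without 8 or 9, and without 12, and the highest without time point 6, without 14 and without 14. Among members, with 0, 0 and 1 called, DESeq2 called 3, 3 and 2. In the first comparison TMM, DESeq2 size factors and the fit to only the compared phases called 1 each, the TEF1 coding peak. In the third, ribosomal DNA in the library size left 0. Leaving out 1 library gave 0 to 2, 0 to 1 and 0 to 1. Both TEF coding peaks were called in the first without time point 6 or 7, the TEF1 coding peak also without 12 or 14, and in the second without 6, 7 or 17. EFT2 was called in the second without time point 14 and lost in the third without 12. The cause was not tested.

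Of 1548 recomputed log2 fold changes of member peaks, 2 lost their call, both of EFT2, 20 gained one and 52 changed sign, none of them called. Of 166 recomputed ratio differences, 14 changed sign, and none passed the threshold after adjustment. Counting ribosomal DNA in the library size moved the median log2 fold change over all peaks from 0.06 to -0.10 in the first comparison and from -0.04 to 0.16 in the third, so the EFT2 value of 1.27 in the third stands above a median that had itself risen. At a linking distance of 250 bp 8 member peaks were left, without the coding peaks, and at 1000 bp 12 were found, the added one lying inside YEF3. No paired analysis was possible because each phase holds different time points and the replicate numbers do not pair libraries. Depth limits the 5 poorly covered libraries most, and 0.240 nuclear CPM is the level that 3 counts give in the deepest library.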
